A study of Mus musculus with 6 samples.

Results

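A set of 10 transcription factors linked to effector and non-lymphoid tissue regulatory T cells (Tregs) was examined: Gata3, Rora, Batf, Irf4, Prdm1, Maf, Pparg, Bhlhe40, Id2 and Nfil3. They were taken as a list of names, as 10 of the 49315 genes in the count table, and all 10 were among the 13572 genes that passed the filter on low counts. Tregs are the CD4+ T cells defined by the factor Foxp3 that hold immune responses in check. The RNA came from Foxp3-GFP reporter mice at 9 days of age, in which cells that express Foxp3 make a green fluorescent protein. Skin and skin-draining lymph nodes (SDLNs) of 3 mice were pooled into each sample, CD45+ cells were enriched on beads, and live CD45+ CD4+ Foxp3-EGFP+ cells were sorted into lysis reagent. Each tissue gave 3 libraries, named here by tissue and by the letter of the column, and all 6 share the Foxp3-GFP genotype and a batch number in the labels. Groups were taken from the sample titles, because the labelled tissue is skin throughout.

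As background, Tregs that leave the thymus resemble resting T cells and carry factors such as Bach2, Tcf7 and Lef1. In response to antigen and cytokines, Batf and Irf4 bind DNA together and open chromatin at effector genes, and Prdm1 (Blimp-1) and Maf are then induced in cells that make interleukin-10. Gata3, Rora, Pparg, Bhlhe40, Id2 and Nfil3 have each been tied to Tregs or other lymphocytes that live in barrier tissues or fat. Several of these proteins act through relatives or partners: Id proteins hold E proteins off DNA, Pparg binds as a pair with a retinoid X receptor, and Batf pairs with Jun proteins.

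The promoters of some members carry letters that the family of another member binds, and the stretches with such a match are shown for that reason. RefSeq promoter windows (GRCm38.p6, 250 bases before to 50 after the RefSeq start) were found for 8 of the 10 members, in 10 windows, and not for Maf and Bhlhe40. The 250 bases before the start were searched on both strands. Each stretch has 80 bases, is written 5′ to 3′ on the strand of the gene, and has the match in capitals.
Prdm1 (chr10:44458753-44458832, minus strand): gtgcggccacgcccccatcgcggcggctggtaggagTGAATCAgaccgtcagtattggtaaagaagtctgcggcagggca
Batf (chr12:85686470-85686549, plus strand): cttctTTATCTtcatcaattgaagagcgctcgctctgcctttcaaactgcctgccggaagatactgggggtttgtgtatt
Nfil3 (chr13:52981040-52981119, minus strand): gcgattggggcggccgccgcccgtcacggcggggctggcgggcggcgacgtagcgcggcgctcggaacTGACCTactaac
Pparg, first window (chr6:115361064-115361143, plus strand): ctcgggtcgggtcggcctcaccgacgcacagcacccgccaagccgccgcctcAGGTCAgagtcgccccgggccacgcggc
Pparg, second window (chr6:115362269-115362348, plus strand): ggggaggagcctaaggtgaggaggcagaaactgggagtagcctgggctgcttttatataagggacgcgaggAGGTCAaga
Gata3 (chr2:9878648-9878727, minus strand): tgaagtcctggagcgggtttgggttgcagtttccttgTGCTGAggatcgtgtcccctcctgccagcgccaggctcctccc

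The match in Prdm1 is to TGANTCA, the AP-1 site that Batf and Jun pairs bind, at -48 to -42 from the RefSeq start. This motif was in 6.75% of all 32851 windows. The Batf match is to the GATA motif AGATAA on the opposite strand at -245 to -240, and 9.99% of windows held one. Nfil3 at -12 to -7 (opposite strand) and both Pparg windows, at -28 to -23 and at -9 to -4, hold AGGTCA, the core site of Rora and other nuclear receptors, which was in 14% of windows. The Gata3 match is to the Maf core TGCTGA at -90 to -85, found in 16.1% of windows. The CAGCTG box of the E proteins that Id2 blocks was in Id2 itself and in Nfil3, against 13.0% of windows. No member window held the Bhlhe40 box CACGTG (6.02% of windows), the Nfil3 type D-box TTANGTAA (2.06%), the IRF pair GAAANNGAA (7.13%) or the CRE TGACGTCA (1.55%). No match of one motif overlapped a match of another. These are matches of letters and not measured sites.

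Total counts ran from 3748669 to 11741784 in the skin libraries and from 47243498 to 116158706 in the SDLN libraries. The skin libraries also held fewer genes. Only 20.9% to 41.8% of the tested genes had over 3 counts there, against 99.6% to 99.9% in the SDLN libraries. A count of 3 is used as the floor, the most that a count of 0 allows, and equals 0.80, 0.255 and 0.332 in skin A, B and C as CPM, a count scaled to a library total of 1000000. The labels were then checked against defining genes. Foxp3 had 0, 330 and 1 counts in skin A, B and C, and Cd4 had 0, 1861 and 2, whereas all 3 SDLN libraries held at least 1788 and 14288. The libraries labelled skin Tregs A and C thus had at most 2 counts of either of the genes by which the cells were sorted. Other T cell genes went both ways. Cd3g was at 888 and 607 CPM in skin A and C against 1132 to 1209 CPM in SDLN libraries, and Cd3e at 0 and 293 CPM against 578 to 1063 CPM. Cd28 was at 531 and 1405 CPM against 365 to 450 CPM. The 11 Treg and T cell markers summed to 5649 CPM in skin A and 7220.5 CPM in skin C, against 9762 to 10125 CPM in SDLN libraries. Skin stands below for the 3 libraries labelled skin Tregs, and every difference given is between libraries so labelled and those of SDLN Tregs. Of the 20 myeloid marker genes 19 were tested and 16 were higher in skin (Lyz2, Cd74, H2-Aa, H2-Ab1, H2-Eb1, Csf1r, Fcer1g, Tyrobp, C1qa, C1qb, C1qc, Adgre1, Mrc1, Cd68, Cd209a and Spi1), with a summed level of 34736 to 62853 CPM in skin libraries and 447 to 781 CPM in SDLN libraries. Of all tested genes, 1.04% were higher in skin and 45.3% higher in SDLNs at an adjusted p under 0.05 in the same edgeR fit. Itgam, a myeloid integrin of this list, was at 0 in all skin libraries. Any part of these cells in the members' values was not tested. P-values here measure the spread between these samples only, and the floor covers counting error only, since no molecular identifiers are described.

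Whether the members differed between tissues was asked first for detection. All 10 members were over the floor in every SDLN library. In skin, 21 of the 30 pairs of member and library were over it. That was 7 members in skin A, 8 in skin B and 6 in skin C, so the members were over the floor more often than the tested genes as a whole, which is a description and was given no test. Drawing every library down to 3748669 counts left 20 of 30 pairs in skin and 30 of 30 in SDLNs. Gata3, Rora, Maf, Id2 and Nfil3 were over the floor in all 3 skin libraries, Batf and Bhlhe40 in 2, Irf4 and Prdm1 in 1, and Pparg in none.

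**Figure D1:**
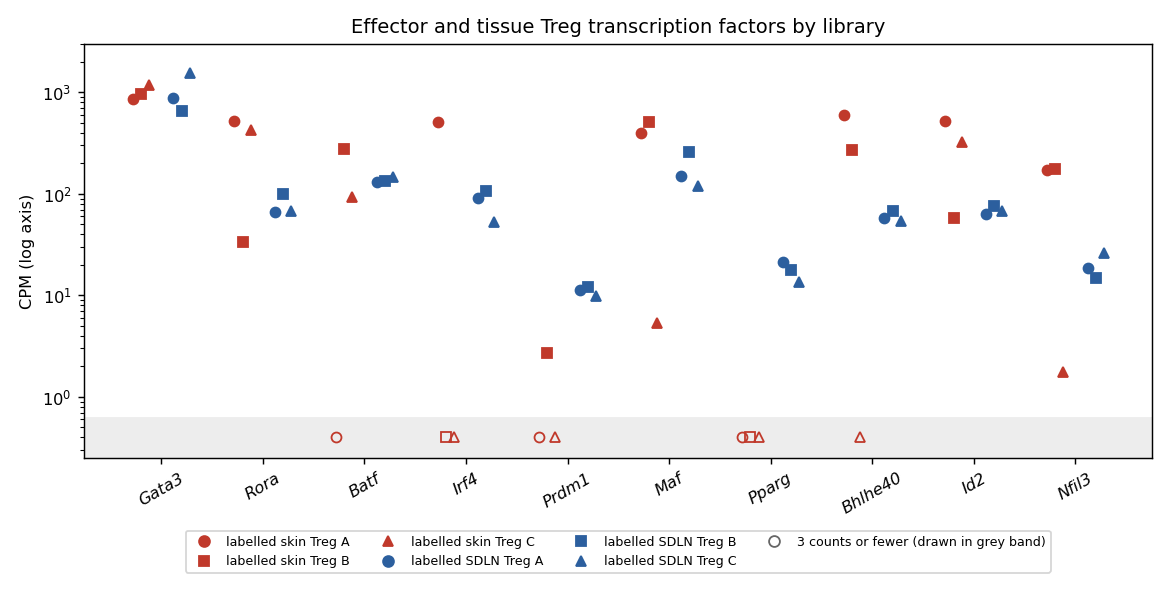
Level of each member in each library, in CPM on a log axis, with skin libraries in red, SDLN libraries in blue and the letter of the library shown by the symbol. Open symbols in the grey band are libraries with 3 counts or fewer and carry no height. Skin libraries range from the grey band to above the SDLN values for Batf, Irf4 and Bhlhe40, and all 3 are in the grey band for Pparg.

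In the edgeR quasi-likelihood fit, 0 of 10 members passed an adjusted p of 0.05 as higher in the libraries labelled skin Tregs, where 1.04% of all tested genes did, and 0 had an unadjusted p under 0.05. DESeq2 called 1 (Id2), beside 2.98% of all tested genes, and limma voom 0, beside 0.936%. One member, Pparg, was called higher in SDLN Tregs, where 45.3% of the tested genes were. No member had all skin libraries above all SDLN libraries, a pattern of 2.39% of tested genes. Prdm1 and Pparg had all SDLN libraries above all skin libraries, which held for 53.6%. The median log2 fold change (skin over SDLN) was 0.60 over the 10 members and -2.21 over all tested genes. When 1 library was left out, the member median ran from 0.34 (without SDLN C) to 1.05 (without skin C). The member median lies between Irf4 and Maf, so it is the same with Pparg at its bound, but it was -2.52 with limma voom, where the median of all genes was -4.68. In bulk samples, fewer cells of a type and less RNA per cell cannot be told apart.

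Detection in skin went with abundance in SDLN Tregs. At a mean SDLN level of 10 to 30 CPM there were 2680 genes, of which 56.5% were over the floor in no skin library and 4.44% in all 3. Pparg, Prdm1 and Nfil3 fall in this class, with 0, 1 and 3 skin libraries. Of the 3649 genes at 30 to 100 CPM, 8.63% were over it in all 3, and this class holds Rora and Id2 with 3 libraries, Bhlhe40 with 2 and Irf4 with 1. Among the 1760 genes at 100 to 300 CPM, 40.0% were over the floor in 2 skin libraries, like Batf, and 28.1% in 3, like Maf. Gata3 belongs to the 91 genes at 1000 CPM or more, of which 96.7% were over the floor in all 3.

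**Figure D2:**
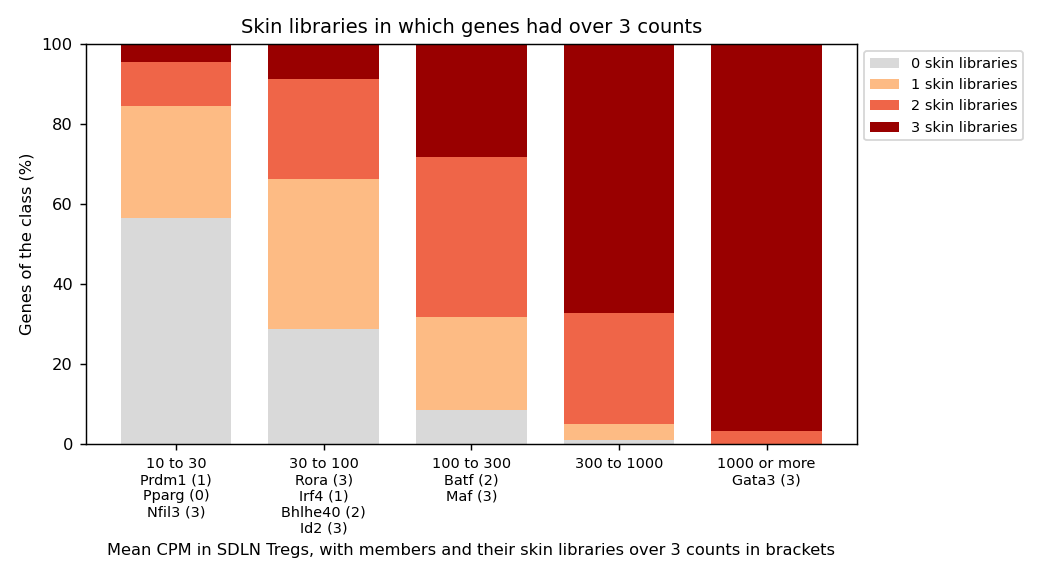
Share of the genes of the count table (percent, vertical axis) over 3 counts in 0, 1, 2 or 3 skin libraries, by class of mean SDLN level in CPM (horizontal axis). Members are named under their class with their own number of skin libraries in brackets. The dark part of the bars grows from 4.44% in the lowest class to 96.7% in the highest.

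Gata3, the zinc finger factor of type 2 immunity that also stabilises Foxp3 expression in tissue Tregs, was the most abundant member per length in both tissues. Gata3 (ENSMUSG00000015619, chr2:9857078-9890034, minus strand, GRCm38) was at 852, 955 and 1181 CPM (skin A, B, C) versus 883, 652 and 1545 CPM (SDLN A, B, C). The groups overlapped, and SDLN C was the highest of the 6. Its mean was 996 ± 168 CPM in skin and 1027 ± 464 CPM in SDLNs (SD, n = 3 each). The log2 fold change was -0.03 (SE 0.529, 95% interval -1.34 to 1.28, adjusted p = 0.988 with edgeR). Its level per kb of exon was at the 97.5th to 99.3rd percentile of tested genes in all 6 libraries. Annotated genes that share exon bases with Gata3 had 0 counts in skin and at most 187 in an SDLN library. Among the other GATA factors, Gata1 was at 28.1 to 36.7 CPM in SDLN libraries and 0 in skin, at least 71.0-fold lower in skin against the mean floor of 0.463 CPM per library (adjusted p = 0.00344). Gata2 was at 0 in every library.

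Maf (c-Maf), a leucine zipper factor that drives Il10 in T cells, was not called. Maf (ENSMUSG00000055435, chr8:115682942-115707794, minus strand) was at 394, 516 and 5.31 CPM (skin A, B, C) versus 152, 260 and 119 CPM (SDLN A, B, C). Skin A and B lay above all SDLN libraries and skin C below all of them. Maf had a log2 fold change of 0.65 (SE 1.37, 95% interval -2.74 to 4.05, adjusted p = 0.862). It was -1.75 with limma voom and -0.33 without skin B (adjusted p = 0.414 and 0.902). Il10, one of the genes that Maf and Prdm1 act on, was at 280, 303 and 163 CPM (skin A, B, C) versus 18.3, 23.5 and 10.7 CPM (SDLN A, B, C). Its log2 fold change was 3.79 (SE 0.999, adjusted p = 0.0221), and leaving out any SDLN library ended the call (adjusted p up to 0.167).

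Rora, a nuclear receptor best known from type 2 innate lymphoid cells and skin Tregs, was high in 2 of 3 skin libraries. Rora (ENSMUSG00000032238, chr9:68653786-69388246, plus strand) was at 528, 33.3 and 426 CPM (skin A, B, C) versus 66.6, 101 and 67.3 CPM (SDLN A, B, C). Skin A and C were above every SDLN library, and skin B was below them all. The log2 fold change was 2.02 (SE 1.11, 95% interval -0.73 to 4.76, adjusted p = 0.240). Without skin B the adjusted p was 0.0290 at a log2 fold change of 2.53, without skin C it was 0.454 at 1.27, and over all alternatives it ran from 0.0290 to 0.559. Of the 8 markers of type 2 innate lymphoid cells, 6 had at most 3 counts in each skin library, among them Il7r, Il17rb, Il5, Il13 and Kit, and of the 5 tested 0 were called higher in skin and 3 higher in SDLNs (Il7r, Il17rb and Kit), beside 1.04% and 45.3% of all tested genes. Their summed level was 92.2 to 1216 CPM in skin and 359 to 462 CPM in SDLN libraries, and Il1rl1, the interleukin-33 receptor shared with tissue Tregs, made up 998 CPM of the sum in skin A.

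Batf and Irf4, which bind composite sites as a pair, were not found together in any skin library. Batf (ENSMUSG00000034266, chr12:85686669-85709087, plus strand) was at 0, 275 and 92.2 CPM (skin A, B, C) versus 132, 134 and 148 CPM (SDLN A, B, C). Irf4 (ENSMUSG00000021356, chr13:30749226-30766976, plus strand) was at 515, 0 and 0 CPM (skin A, B, C) versus 91.7, 107 and 52.4 CPM (SDLN A, B, C). Skin A thus held Irf4 and no Batf, and skin B and C held Batf and no Irf4. The SDLN values of Batf were tight, 138 ± 8.57 CPM, against 122 ± 140 CPM in skin (SD, n = 3 each). Batf had a log2 fold change of -0.04 (SE 2.13, 95% interval -5.32 to 5.23, adjusted p = 0.996), or -3.30 with limma voom (adjusted p = 0.252). For Irf4 it was 0.54 (SE 3.06, 95% interval -7.04 to 8.12, adjusted p = 0.960). Without skin A, where all its skin counts were, Irf4 was called lower in skin, as it was with limma voom (adjusted p = 0.00785 and 0.0454, range over alternatives 0.00785 to 0.999). Irf8, the close relative of Irf4 in myeloid and B cells, was in the same libraries as Irf4, at 195, 0 and 0 CPM (skin A, B, C) versus 74.0, 84.6 and 43.2 CPM (SDLN A, B, C). Their within-library log2 ratio (0.5 counts added to both) was 1.40 in skin A, where alone in skin it could be formed, and 0.31, 0.33 and 0.28 in SDLN A, B and C. With a ratio in 1 skin library, no test of the difference is given.

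The Jun proteins that pair with Batf, Jun, Junb and Jund, were each higher in every skin library than in any SDLN library, and 2 of them were called. Of 14 partner proteins fixed as a list, all 14 were tested, 3 rose in skin (Jun, Junb and Spi1) and 4 were higher in SDLNs (among them Zfpm1, Rxrb and Ncoa1), beside 1.04% and 45.3% of all tested genes. The median log2 fold change was -0.23 beside -2.21 over all tested genes, and -3.79 beside -4.68 with limma voom. Junb, the Jun protein paired with Batf in activated T cells, was at 5544, 3288 and 1306 CPM (skin A, B, C) versus 492, 581 and 461 CPM (SDLN A, B, C). Its log2 fold change was 2.55 (SE 0.377, adjusted p = 0.00374), and it was higher in 3 of 3 skin libraries. Jun was at 109 to 3041 CPM in skin and 4.66 to 6.23 CPM in SDLN libraries, a log2 fold change of 7.32 (SE 1.31, adjusted p = 0.00609). Spi1 (PU.1), a partner of Irf4 and Irf8 in myeloid and B cells, was at 399, 271 and 14.1 CPM (skin A, B, C) against 1.19 to 3.49 CPM in the SDLN libraries. Its adjusted p was 0.0232, rising to 0.116 without SDLN B, 0.101 without SDLN C and 0.0972 without SDLN A. Jun and Junb also belong to a list of 16 genes that respond to tissue digestion, of which 8 rose in skin (Fos, Fosb, Jun, Junb, Atf3, Dusp1, Hspa1a and Hspa1b) and 0 were higher in SDLNs. The sum of that list was 13742 to 36997 CPM in skin and 4182 to 4446 CPM in SDLN libraries, and its part in the Jun and Junb values was not tested.

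Prdm1, which encodes the repressor Blimp-1 that ends the resting programme, was the least abundant member per length in SDLN Tregs. Prdm1 (ENSMUSG00000038151, chr10:44437177-44528501, minus strand) was at 0, 2.73 and 0 CPM (skin A, B, C) versus 11.4, 12.2 and 9.91 CPM (SDLN A, B, C). Every skin value was below every SDLN value. Its log2 fold change was -3.49 (SE 1.72, 95% interval -7.75 to 0.77, adjusted p = 0.184). It was called lower in skin without skin B (adjusted p = 0.00361), where its log2 fold change was -12.12 against skin counts that were all 0 and so depends on the prior count of the fit. It was also called with DESeq2 (0.0213) and with limma voom (0.00503), in a range of 0.00361 to 0.318 over alternatives. Bach2, the repressor that Blimp-1 is set against, was at 46.3, 56.8 and 34.4 CPM in SDLN A, B and C and at 0 in all skin libraries, at least 99.1-fold lower in skin (adjusted p = 0.00491). The log2 ratio of Prdm1 to Bach2 was -2.03, -2.22 and -1.79 in SDLN A, B and C. Skin B had 32 counts of Prdm1 and 0 of Bach2, and both were at 0 in skin A and C, so no skin ratio and no test of the difference is given.

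Pparg, the lipid-sensing nuclear receptor of fat and other tissue Tregs, was the only member called in the edgeR fit of all 6 libraries. Pparg (ENSMUSG00000000440, chr6:115360951-115490399, plus strand) had 0 counts in each skin library. In SDLN A, B and C it was at 21.1, 18.0 and 13.6 CPM, with a mean of 17.6 ± 3.76 CPM (SD, n = 3). It was at least 38.0-fold lower in skin against the mean skin floor per library (adjusted p = 0.00322), and was called in all 12 alternatives that tested it. Each of these again set skin counts of 0 against the SDLN counts, so they are no separate support. Pparg passed the filter on low counts through its SDLN counts alone. Of the genes in its class of SDLN level, 56.5% were likewise over the floor in no skin library. Pparg binds DNA with the retinoid X receptors. Rxrb is in the same class of SDLN level as Pparg. Rxrb was at 0 in all skin libraries and at 15.8 to 20.0 CPM in SDLN libraries, at least 37.9-fold lower in skin (adjusted p = 0.00322). Rxra was at 0, 146 and 0 CPM (skin A, B, C) versus 49.6, 65.3 and 37.5 CPM (SDLN A, B, C) (adjusted p = 0.999). The relative Ppard was over the floor in the same skin library as Rxra, skin B, at 14.6 CPM.

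Of 12 lipid genes that PPARs act on, 10 were tested, 0 were called higher in skin and 2 higher in SDLNs, beside 1.04% and 45.3% of all tested genes. The median log2 fold change was 1.21 beside -2.21 over all tested genes, and with limma voom it was -2.79 beside -4.68. Angptl4, a secreted inhibitor of lipoprotein lipase, was at 0 in skin and at 8.56 to 10.7 CPM in SDLN libraries (at least 20.3-fold lower in skin, adjusted p = 0.00322). Slc27a2, a fatty acid transporter, was the other call, at 0 in skin and 0.466 to 1.11 CPM in SDLN libraries. Plin2, which coats lipid droplets, was at 0, 317 and 259 CPM (skin A, B, C) versus 50.3, 57.5 and 64.4 CPM (SDLN A, B, C). Its skin libraries lay on both sides of the SDLN range (log2 fold change 1.93, SE 2.23, adjusted p = 0.668). Acaa2, an enzyme of fatty acid oxidation, was at 0, 81.6 and 212 CPM in skin A, B and C against 139 to 184 CPM in SDLN libraries (adjusted p = 0.955). Dgat1, which makes triglycerides, was at 0, 329 and 139 CPM in skin A, B and C against 29.0 to 37.2 CPM in SDLN libraries (adjusted p = 0.581). Without skin A all 12 were tested, and 2 were called higher in skin and 4 higher in SDLNs, beside 2.04% and 42.5% of all genes tested in that fit. Adipocyte markers were near 0, with 0 of 5 genes tested and a summed level of at most 0.267 CPM in skin libraries and 0.473 CPM in SDLN libraries.

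Id2, an inhibitor of E proteins that is associated with effector and tissue lymphocytes, was seen in all skin libraries, while its relative Id3 was not. Id2 (ENSMUSG00000020644, chr12:25093799-25097140, minus strand) was at 519, 58.0 and 324 CPM (skin A, B, C) versus 63.7, 76.6 and 68.6 CPM (SDLN A, B, C). Skin A and C were above every SDLN library, and skin B was just below them. Its mean was 300.3 ± 231 CPM in skin and 69.6 ± 6.52 CPM in SDLNs (SD, n = 3 each). The log2 fold change was 2.00 (SE 0.984, 95% interval -0.43 to 4.42, adjusted p = 0.182). DESeq2 called it (adjusted p = 0.0222), as did the fit without skin B (0.0326), in a range of 0.0222 to 0.501 over alternatives.

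Id3, the inhibitor associated with resting Tregs, was at 273, 256 and 156 CPM in SDLN A, B and C and had 0, 0 and 1 counts in skin A, B and C. It was called lower in skin (adjusted p = 0.00595) and was also called in all 12 alternatives that tested it. These again set at most 1 count in a skin library against the SDLN counts that took Id3 past the filter. They are thus no separate support. The within-library log2 ratio of Id2 to Id3 was 11.9, 10.4 and 10.9 (skin A, B, C) versus -2.10, -1.74 and -1.19 (SDLN A, B, C). Id2 exceeded Id3 in every skin library and Id3 exceeded Id2 in every SDLN library. The difference was 12.8 (exact two-sided permutation p = 0.10, the smallest that 3 against 3 allows, adjusted over the 4 ratios formed 0.20, n = 3 each), and its size rests on the 0.5 counts added to an Id3 count of 0 or 1. It was 11.8 when each library was thinned to 3748669 counts. Of the E proteins that both inhibit, Tcf3, Tcf4 and Tcf12 were all at 0 in skin A. In skin B and C, Tcf4 was at 109 and 131 CPM, against 5.75 to 9.85 CPM in SDLN libraries (adjusted p = 0.378). Tcf12 was over the floor in skin C alone, at 88.6 CPM, and Tcf3 was over the floor in skin B alone, at 74.6 CPM.

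Bhlhe40, a basic helix-loop-helix repressor that is induced by T cell receptor signals and limits Il10, was high in 2 skin libraries and undetected in the third. Bhlhe40 (ENSMUSG00000030103, chr6:108660629-108666925, plus strand) was at 596, 268 and 0 CPM (skin A, B, C) versus 58.1, 68.2 and 54.2 CPM (SDLN A, B, C). Its log2 fold change was 1.95 (SE 2.27, 95% interval -3.67 to 7.57, adjusted p = 0.668). With limma voom it was -3.75 (adjusted p = 0.284). Without skin C it was called higher in skin (adjusted p = 0.0322, range over alternatives 0.0322 to 0.886). Bhlhe41, its closest relative, was at 1.88 to 2.18 CPM in SDLN libraries and at the floor in all skin libraries (adjusted p = 0.00322).

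Nfil3 (E4bp4), a leucine zipper factor of innate lymphocytes and of the circadian clock, was high and low in the same skin libraries as Maf. Nfil3 (ENSMUSG00000056749, chr13:52967209-52981073, minus strand) was at 172, 174 and 1.77 CPM (skin A, B, C) versus 18.5, 14.8 and 26.2 CPM (SDLN A, B, C). Skin A and B were above every SDLN library and skin C, with 16 counts, was below them. Nfil3 had a log2 fold change of 2.33 (SE 1.71, 95% interval -1.90 to 6.56, adjusted p = 0.409). With limma voom it was -0.03 (adjusted p = 0.989). Without skin C it was called higher in skin (adjusted p = 0.0445, range over alternatives 0.0445 to 0.989). The D-box activators Dbp and Tef, which bind the same letters as Nfil3, were at 0 in skin, at least 24.3-fold and 23.8-fold lower (adjusted p = 0.00493 and 0.00322).

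**Figure D3:**
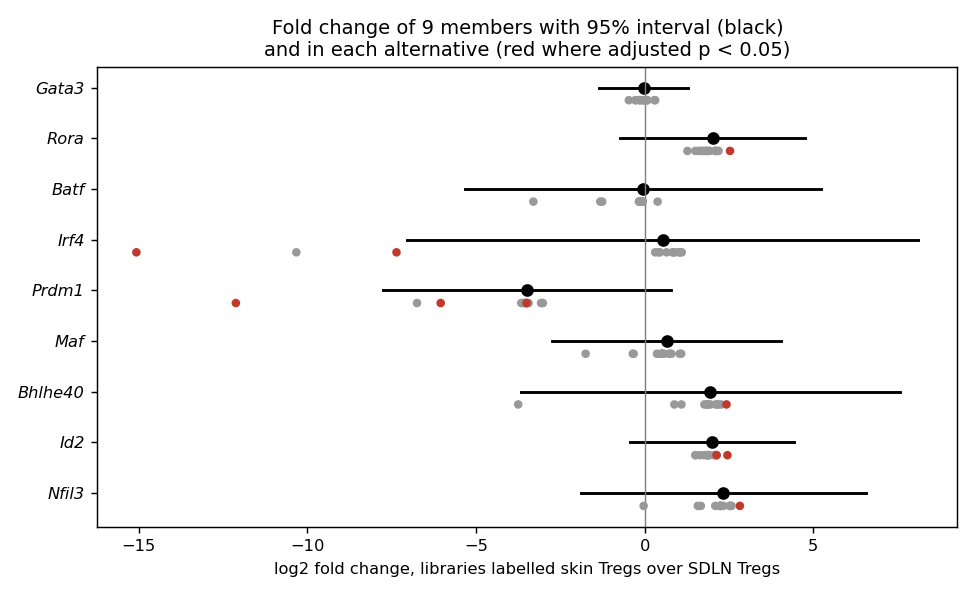
Log2 fold change of the libraries labelled skin Tregs over SDLN Tregs (horizontal axis) for 9 members, as a black point with its 95% interval, and below it the value in each alternative, red where the adjusted p was under 0.05. Pparg is left out because all its skin counts were 0. Every black interval crosses 0, from the narrow one of Gata3 (-1.34 to 1.28) to that of Irf4 (-7.04 to 8.12).

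The skin libraries thus differed in which members they held. Skin A had the highest skin level of Rora, Irf4, Bhlhe40 and Id2, with Batf, Prdm1 and Pparg at 0. Skin B had the highest skin level of Batf, Prdm1, Maf and Nfil3, with Irf4 and Pparg at 0, and was the library in which Foxp3 and Cd4 were found. Skin C had the highest skin level of Gata3, with Irf4, Prdm1, Pparg and Bhlhe40 at 0. The summed level of the 10 members was 3576, 2283 and 2030 CPM (skin A, B, C) versus 1497, 1444 and 2105 CPM (SDLN A, B, C), so that the groups overlapped.

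Levels can be compared between genes only per length, here as CPM per kb of annotated exon. In SDLN Tregs Gata3 was highest at 258 ± 117 CPM per kb, then Batf at 98.0 ± 6.09, Id2 at 28.6 ± 2.68, Maf at 21.5 ± 8.93, Irf4 at 17.0 ± 5.71, Bhlhe40 at 12.8 ± 1.54, Nfil3 at 9.80 ± 2.87, Rora at 5.99 ± 1.501, Pparg at 5.95 ± 1.27 and Prdm1 at 2.00 ± 0.209 (SD, n = 3). Gata3, Batf and Prdm1 had ranges that overlapped no neighbour in this order, whereas Maf overlapped both Id2 and Irf4, Bhlhe40 overlapped Irf4 and Nfil3, and Rora overlapped Nfil3 and Pparg. In the skin libraries the means ran from 250 ± 42.2 CPM per kb for Gata3 through 123 ± 94.8 for Id2, 87.0 ± 99.4 for Batf, 61.2 ± 63.4 for Bhlhe40 and 57.3 ± 48.9 for Nfil3 to 25.2 ± 20.0 for Rora and 0.163 ± 0.282 for Prdm1. Gata3 in skin (214 to 297) overlapped no other member, and the 7 members from Id2 to Rora had ranges that overlapped one another.

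Beyond the members, 27 relatives from the same gene families were followed as a list. Of these 20 were tested, 0 were called higher in skin and 9 higher in SDLNs (among them Gata1, Irf7, Mafk, Bhlhe41, Id1, Id3, Dbp and Tef), with a median log2 fold change of -2.87 beside -2.21 over all tested genes (-5.38 beside -4.68 with limma voom). These 9 of 20 stand beside the 45.3% of all tested genes called in that direction. All 9 were at the floor in every skin library. The mean SDLN level of Id1, 0.446 CPM, was below the mean skin floor of 0.463 CPM, so its skin counts of 0 show no difference. Irf7, the interferon-induced family member, was at 52.8 to 75.0 CPM in SDLN libraries and at least 140-fold lower in skin (adjusted p = 0.00806). Batf3, the relative of Batf needed by a class of dendritic cells, was at 127, 0 and 51.7 CPM (skin A, B, C) against at most 0.343 CPM in the SDLN libraries (adjusted p = 0.113). It was called higher in skin with DESeq2 (adjusted p = 0.000952) and without skin B (0.0249). Irf2 was at 404, 389 and 0 CPM in skin A, B and C against 155 to 204 CPM in SDLN libraries (adjusted p = 0.959), and Irf1 was at 0, 287 and 32.7 CPM against 76.4 to 142 CPM (adjusted p = 0.995). Without skin B 1 of 20 relatives was called higher in skin (Batf3) and 14 higher in SDLNs, beside 1.21% and 48.9% of all genes tested in that fit.

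**Figure D4:**
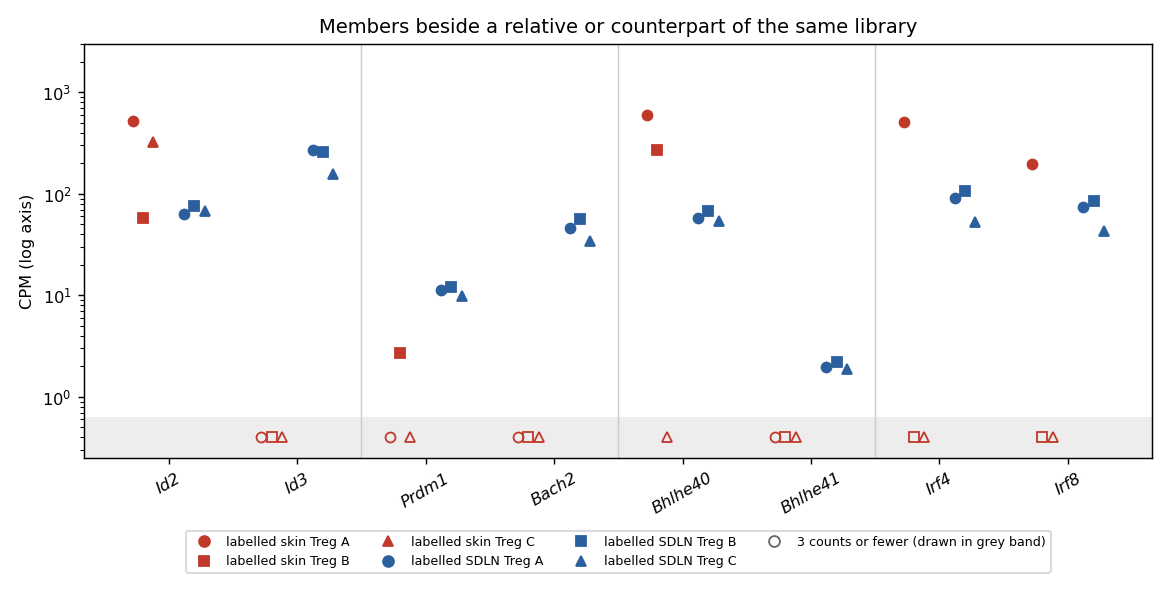
Members beside a relative or counterpart, in CPM on a log axis, with symbols as in the plot of member levels and libraries at 3 counts or fewer in the grey band. Id3, Bach2 and Bhlhe41 are in the grey band in all 3 skin libraries, and Irf8 is over it only in skin A, as is Irf4.

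Of 16 factors of resting Tregs, all were tested, 0 were called higher in skin and 6 higher in SDLNs (Bach2, Tcf7, Lef1, Satb1, Id3 and Gfi1), beside 45.3% of all tested genes, with a median log2 fold change of -1.81 beside -2.21 (-4.39 beside -4.68 with limma voom). Tcf7, which keeps T cells in a stem-like state, was at 194 to 310 CPM in SDLN libraries and at 0 in skin, at least 567-fold lower (adjusted p = 0.00606). Lef1, its partner, was at 315 to 360 CPM in SDLN libraries and had 0, 2 and 4 counts in skin A, B and C (adjusted p = 0.00529). The list was not uniformly low in skin. Ets1 was at 486, 4225 and 7185 CPM (skin A, B, C) versus 3279, 2253 and 5637 CPM (SDLN A, B, C) (adjusted p = 0.936), and Foxp1 was at 38.4, 354 and 174 CPM in skin A, B and C, overlapping the SDLN range of 210 to 330 CPM.

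A list of effector and tissue Treg genes, taken as downstream of the members, held calls in both directions. Whether the members act on these genes here was not tested. Of 21 genes 20 were tested, 3 rose in skin (Il10, Ctla4 and Gzmb) and 2 were higher in SDLNs (Ccr4 and Tnfrsf25), beside 1.04% and 45.3% of all tested genes. The median log2 fold change was 0.71 in the edgeR fit, where that of all tested genes was -2.21, and -0.22 in the limma voom fit, where it was -4.68. When 1 library was left out, the median of the list ran from 0.0173 (without skin C) to 0.685 (without skin A). The median of all genes was -7.20 and -6.10 in those fits. Gzmb, which encodes granzyme B, was at 674, 969 and 508 CPM (skin A, B, C) versus 142, 135 and 123 CPM (SDLN A, B, C). Its log2 fold change was 2.41 (SE 0.505, adjusted p = 0.00969, or 0.0519 without SDLN A and 0.115 with no filter on low counts). Ctla4, the inhibitory receptor of Tregs, was at 1181, 1322 and 796 CPM (skin A, B, C) versus 520, 583 and 353 CPM (SDLN A, B, C) (log2 fold change 1.15, SE 0.366, adjusted p = 0.0447). The groups did not overlap for either gene, but the Ctla4 call was lost in 10 of 13 alternatives, every one that left out a library among them, with an adjusted p of up to 0.406.

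Icos, a costimulatory receptor of activated T cells, was at 751, 1416 and 1698 CPM (skin A, B, C) against 658 to 891 CPM in the SDLN libraries (adjusted p = 0.307, or 0.0234 without skin A, where it was called higher in skin). Klrg1, a marker of terminally differentiated Tregs, was at 394, 293 and 500.3 CPM (skin A, B, C) against 203 to 222 CPM in the SDLN libraries, with no overlap (adjusted p = 0.316, or 0.0294 with DESeq2, which called it). Tnfrsf4 and Il2ra were at means of 1726 ± 835 and 1301 ± 861 CPM in skin and 1933 ± 863 and 1047 ± 291 CPM in SDLNs (SD, n = 3 each). Ccr4, a skin-homing chemokine receptor, was at 31.7 to 93.1 CPM in SDLN libraries and at least 138-fold lower in skin, where it was at 0 (adjusted p = 0.00885). Without SDLN A, 0 genes of this list were called higher in skin.

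The remaining marker lists give what else the sorted samples held. Of 11 Treg and T cell markers, all tested, 1 was called higher in skin (Ctla4) and 0 higher in SDLNs, and their sum was 5649 to 9229 CPM in skin and 9762 to 10125 CPM in SDLN libraries. DESeq2 called 2 higher in skin and 3 higher in SDLNs, limma voom 0 and 2 (Foxp3 and Cd4), and the fit without skin A 1 and 4. Of all tested genes, these 3 fits called 2.98%, 0.936% and 2.04% higher in skin and 47.8%, 53% and 42.5% higher in SDLNs. Of 8 mast cell markers 3 were tested and 2 were higher in SDLNs (Kit and Hdc). Their sum was 226 CPM in skin A, of which Cma1 gave 216 CPM, 0 in skin B and C, and 13.1 to 28.7 CPM in SDLN libraries. Of 8 keratinocyte markers 2 were tested, both higher in SDLNs (Krt10 and Perp), and Krt5, Krt14 and Trp63 were at 0 in every library. Of 7 fibroblast markers 2 were tested and 0 called, with sums of 0, 90.6 and 0.886 CPM in skin A, B and C. Of 5 B cell markers 4 were tested and 3 were higher in SDLNs, with a sum of at most 2.66 CPM in skin and 55.8 to 90.3 CPM in SDLN libraries. The counts from the edgeR fit of all 6 libraries stand beside the 1.04% of all tested genes called higher in skin and the 45.3% called higher in SDLNs. The part of any of these cells in the members' values was not tested.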

How the data were processed

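The authors trimmed reads with Trimmomatic 0.36, mapped them to GRCm38 with STAR 2.5.2b and deposited raw counts per Ensembl gene from featureCounts (Subread 1.5.2). The annotation release, strand setting and treatment of duplicates are not given in the sources used here, so antisense and overlapping genes are uncertain. Symbols, positions and exon lengths came from GENCODE M21, on the same build. It named 49056 of 49315 genes.

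CPM was the count scaled to a library total of 1000000. Differential expression was tested with edgeR 4.0.16 in R 4.3.3 on all 6 libraries (filterByExpr, TMM, glmQLFit with robust estimation, glmQLFTest, tissue as the only term), with Benjamini-Hochberg adjustment over 13572 genes and a threshold of 0.05. The study's methods state no test for this comparison. Standard errors and 95% intervals came from the F statistic. Ratios of 2 genes within a library used a pseudocount of 0.5 and an exact permutation test. Alternatives were DESeq2 1.42.0, limma 3.58.1 voom, other normalizations and filters, leaving out each library, and a block by column letter that was added after seeing the data. All members were named, with list genes past the threshold and over 3 counts in at least 2 skin libraries, the 2 highest of each list in each group, and the genes of the ratios. This rule was not followed in full in the marker lists or in some of the other lists. In the marker lists, genes not past the threshold are mostly given as counts and sums. Other genes at 0 in skin were named after their values were seen. The members and lists were chosen with earlier results of these data known. No 2 libraries were identical. Some members of the lists and 1 of the 4 ratios are not reported here.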

Additional observations from a re-analysis of the deposited data

How the results depend on the processing

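The number of members called higher in the libraries labelled skin Tregs was 0 in the edgeR fit, 1 with DESeq2, and 0 to 2 when 1 library was left out (2 without skin B and 2 without skin C). The number called higher in SDLN Tregs was 1, against 0 with at least 10 counts in every library (5 members tested), 2 with DESeq2, 3 with limma voom, and 1 to 2 when 1 library was left out (2 without skin A and 2 without skin B). Of all genes tested, the edgeR fit called 1.04% higher in skin and 45.3% higher in SDLNs. The shares were 2.98% and 47.8% with DESeq2 and 0.936% and 53% with limma voom. With at least 10 counts in every library they were 5.8% and 0.645%. They were 2.04% and 42.5% without skin A, 1.21% and 48.9% without skin B, and 1.21% and 46.5% without skin C. Without an SDLN library they ran from 0.564% to 0.64% and from 40.1% to 41%. The log2 fold change of Gata3 turned positive with DESeq2 size factors (0.0706), DESeq2 (0.0707) and limma voom (0.29), and ran from -0.47 to 0.31 when 1 library was left out. Those ranges were 1.27 to 2.53 for Rora, 1.51 to 2.46 for Id2, 1.09 to 2.43 for Bhlhe40, 1.58 to 2.83 for Nfil3, -1.26 to 0.39 for Batf, -12.12 to -3.02 for Prdm1, -15.07 to 1.10 for Irf4 and -0.33 to 1.08 for Maf. With limma voom, Batf was at -3.30, Prdm1 at -6.05, Irf4 at -7.36, Maf at -1.75, Bhlhe40 at -3.75 and Nfil3 at -0.0287. The Irf4 to Irf8 ratio rests on 1 skin library. Its difference was 0.16, and -0.31 to 0.39 when 1 library was left out, but 2 of the 3 skin values are 0 only through the counts added, so neither compares the groups. The causes were not tested. Of 135 member values under alternatives, 113 kept their direction and side of the threshold, 14 turned direction, 8 newly passed it in the same direction and 0 fell below it. Of those that turned, Irf4 passed it without skin A and with limma voom. The median of all tested genes was -2.21, and -2.33 with TMMwsp, -2.29 with library size only, -3.27 with no filter on low counts, -4.68 with limma voom, -6.10 without skin A, -7.41 without skin B, -7.20 without skin C and 0.0773 with at least 10 counts in every library. In that last case 81 genes were called higher in skin and 9 in SDLNs, against 141 and 6142. Without an SDLN library it ran from -1.99 to -1.69. The genes tested differ between these filters and libraries. No source ties a column's letter to a numbered label or states that a letter marks the same mice in both tissues. Deviations of same-lettered skin and SDLN libraries from their group means correlated at 0.0199, -0.0210 and 0.0753 for A, B and C, and skin A and B each correlated better with another letter. A replicate block by letter, chosen after seeing the data, gave 61 genes called higher in skin and 5633 in SDLNs and a median of -8.05. It called 0 members higher in skin and 1 in SDLNs, kept 44 of 59 called list genes (Id3, Spi1, Il10, Ctla4, Gzmb, Tnfrsf25, Il7r, Fosb and the myeloid markers Fcer1g, Tyrobp, C1qa, C1qb, C1qc, Adgre1 and Cd68 were not called), and put Irf4 at -10.33, Maf at -0.35, Batf at -1.31 and Prdm1 at -6.75. Ranges and counts over alternatives in the report leave the block out, except the 135 member values. Those include the block, in which Irf4 and Maf turned direction. The floor of 3 counts is 0.80 CPM in skin A and 0.0258 CPM in SDLN A, and at equal totals 20 of 30 pairs of member and library were over it in skin and 30 of 30 in SDLNs.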
